A study of Mus musculus with 12 samples.

Results

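The collagen family was taken as every gene of the deposited count table whose symbol is *Col*, a number, the letter a and a number, with at least 1 count. The rule found 43 genes of 22794. Of these, 11 encode chains of fibrillar collagens, 8 of basement membrane collagens, 6 of the beaded filaments of type VI collagen, 9 of FACIT collagens (which sit on the surface of fibrils), 2 of short chain network collagens and 4 of transmembrane collagens, and 3 belong to the anchoring fibril and other types. Enough counts for a test were present for 32 of the 43.

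The libraries came from polyA RNA of isolated heart muscle cells (cardiomyocytes) of wild-type (WT) C57BL6 mice, killed 16 weeks after surgery. Sham saline mice had a sham operation and saline, and sham JV101 mice a sham operation and JV101. NX saline mice had 5/6 nephrectomy (NX, the removal of most kidney tissue) and saline, and NX JV101 mice had 5/6 nephrectomy and JV101. Each of the 4 groups had 3 libraries, 12 in all, and the labels give neither the content and dose of JV101 nor the age of the mice. Beyond a replicate number the labels do not say how the samples of a group are related, so p-values here measure only the spread between these samples, which may be technical.

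Collagens are made as long chains that are hydroxylated and folded in the endoplasmic reticulum, wound into a helix of chains, secreted, trimmed and crosslinked outside the cell. Fibrillar types I and III give the heart wall its tensile strength and are made mainly by fibroblasts, whereas type IV forms the sheet-like basement membrane that surrounds each cardiomyocyte and each capillary. Deposition of fibrillar collagen is the hallmark of cardiac fibrosis, which is common in chronic kidney disease.

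Total counts per library were 26407125 to 33834238, of which 36.7% to 69.0% fell in the 13 protein genes of the mitochondrial genome, leaving 8382302 to 20720011 counts in other genes. The labelled cell type was matched by its markers: the 10 cardiomyocyte genes summed to 30597 to 57367 CPM (counts scaled to the library total with TMM factors) in each library. Markers of other heart cells were present as well. The summed CPM of the 14 fibroblast markers was 490.3 to 2816, that of the 11 endothelial markers 378.8 to 1954, and that of the 10 macrophage markers 159.8 to 816.3, with no marker of these lists at 0 in any library. Markers of airway epithelium, not a heart tissue, were present too. Their summed CPM in replicates 1 to 3 was 5.65, 0.635 and 300.4 in sham saline and 0.412, 406.8 and 194.7 in NX saline. It was 1.04, 3.48 and 97.8 in sham JV101 and 148.4, 6.53 and 0.0997 in NX JV101. In such bulk samples fewer cells of a type and less RNA per cell cannot be told apart.

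The collagens varied more between single libraries than between the groups, and 3 libraries stood apart. Collagens took 0.136%, 0.192% and 0.168% of the non-mitochondrial counts in sham saline replicates 1 to 3, and 0.188%, 0.232% and 0.306% in NX saline. In sham JV101 the shares were 0.334%, 0.177% and 0.0821%, and in NX JV101 0.130%, 0.314% and 0.181%. Sham JV101, NX JV101 and NX saline thus each held a library near the top of the whole range (0.334%, 0.314% and 0.306%). Sham JV101 also held the lowest. Sham JV101 replicate 1 and NX JV101 replicate 2 were the 2 highest libraries in 11 of the 32 tested collagens (11.3% of all tested genes): *Col1a1*, *Col1a2*, *Col3a1*, *Col5a1*, *Col5a2*, *Col6a1*, *Col6a2*, *Col6a3*, *Col6a6*, *Col8a1* and *Col15a1*. Sham JV101 replicate 3 was the lowest in 20 of 32 (22.4% of all tested genes).

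Markers of some other cell types moved with these libraries. The fibroblast markers summed to 2632 CPM in sham JV101 replicate 1 and 2816 in NX JV101 replicate 2, above the other 10 libraries, and to 490.3 CPM in sham JV101 replicate 3, below them. The macrophage sums were likewise highest in the first pair (756.3 and 816.3 CPM) and lowest in the third library (159.8 CPM). Mesothelial markers, of the cells that cover the heart's surface, did not follow. They summed to 50.8 and 45.4 CPM in the pair and 42.3 CPM in the third library, within 36.5 to 127 CPM over the 12. The airway sums were higher in the third library (97.8 CPM) than in the pair (1.04 and 6.53 CPM). The cardiomyocyte markers had their lowest sums, 30597 and 31006 CPM, in the pair with the most collagen and their highest, 57367 CPM, in the library with the least. The part of the cell mixture in the collagen levels was not tested.

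**Figure D1:**
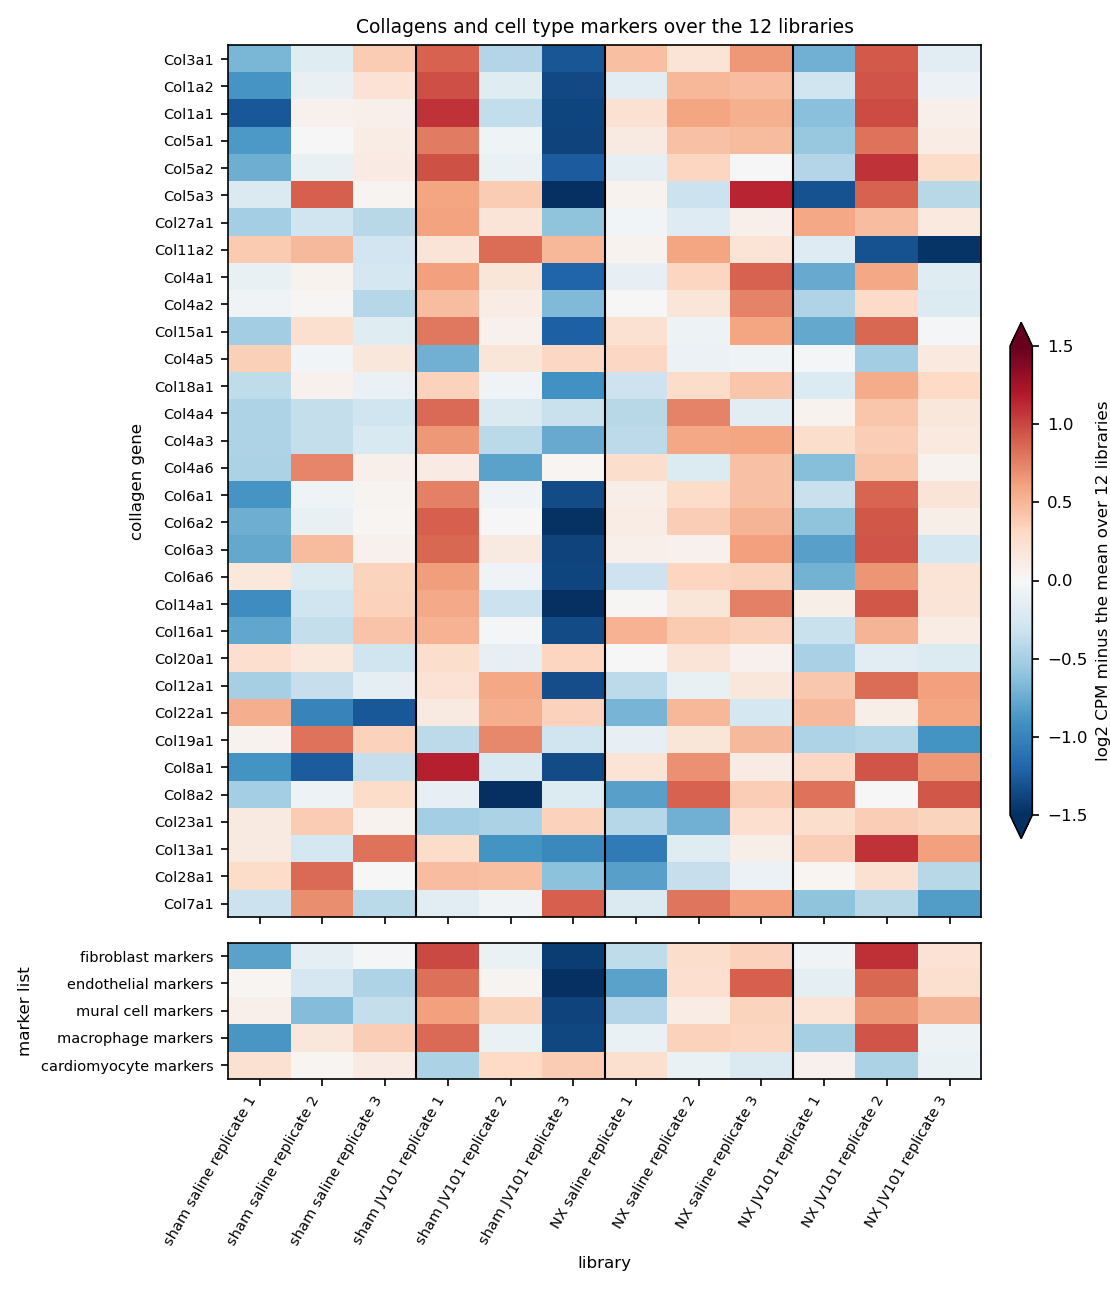
Heat map of log2 CPM minus the mean over the 12 libraries for the 32 tested collagens (rows, ordered by class) and for 5 marker lists (mean over members), with libraries as columns and black lines between groups. Sham JV101 replicate 1 and NX JV101 replicate 2 are red and sham JV101 replicate 3 is blue in most fibrillar, type IV and type VI genes and in the fibroblast, endothelial, mural and macrophage lists, while the cardiomyocyte list runs the other way.

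For 15 collagens with a mean of 10 CPM or more, the highest library exceeded the lowest by a median of 5.01-fold (2.12 to 7.64), and 13 of the 15 spanned more than 3-fold. Over all 6834 tested genes at that level the median was 1.66-fold, and 13.5% spanned more than 3-fold. The widest span belonged to *Col5a3*, a minor type V chain, at 3.05 CPM in sham JV101 replicate 3 and 23.3 CPM in NX saline replicate 3. *Col4a5*, a type IV chain, had the narrowest at 10.5 to 22.3 CPM.

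Upstream sequences are shown for 3 of the genes that shared this library pattern or stood out after nephrectomy (*Col3a1*, *Col5a1* and *Col8a1*) and for *Col11a2*, which followed another pattern described further on. They are the 250 bases before the annotated start, 5′ to 3′ on the gene's strand, from RefSeq on GRCm38.p6, an older build than that of the counts. Capitals mark 3 promoter motifs on either strand, at any distance from the start. They are TATAAA, the letters of the TATA box, then the letters of the CCAAT box, and last GGGCGG, called the GC box. In the printed windows no match overlaps another. The windows are *Col3a1* at chr1:45311288-45311537 (+), *Col5a1* at chr2:27886175-27886424 (+), *Col8a1* at chr16:57754738-57754987 (−) and *Col11a2* at chr17:34038888-34039137 (+).
Col3a1: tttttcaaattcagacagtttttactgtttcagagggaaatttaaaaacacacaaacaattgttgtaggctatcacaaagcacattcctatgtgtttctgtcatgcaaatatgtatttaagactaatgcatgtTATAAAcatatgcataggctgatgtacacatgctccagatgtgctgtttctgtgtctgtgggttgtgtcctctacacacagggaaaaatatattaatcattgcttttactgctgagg
Col5a1: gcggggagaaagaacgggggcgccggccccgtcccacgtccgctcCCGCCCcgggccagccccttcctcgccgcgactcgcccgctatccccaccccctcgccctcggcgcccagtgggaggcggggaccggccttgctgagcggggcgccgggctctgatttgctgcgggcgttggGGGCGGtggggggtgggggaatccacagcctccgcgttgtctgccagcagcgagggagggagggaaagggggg
Col8a1: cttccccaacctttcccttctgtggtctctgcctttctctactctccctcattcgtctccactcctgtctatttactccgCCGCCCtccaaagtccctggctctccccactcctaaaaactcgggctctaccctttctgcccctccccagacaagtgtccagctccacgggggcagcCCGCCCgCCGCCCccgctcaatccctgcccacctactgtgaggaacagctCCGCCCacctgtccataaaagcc
Col11a2: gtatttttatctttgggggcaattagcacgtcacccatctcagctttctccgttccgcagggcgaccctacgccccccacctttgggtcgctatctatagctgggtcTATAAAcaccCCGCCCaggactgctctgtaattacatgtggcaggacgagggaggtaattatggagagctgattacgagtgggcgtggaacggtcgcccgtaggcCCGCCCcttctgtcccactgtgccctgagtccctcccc
*Col3a1* and *Col5a1*, whose values were highest in the same 2 libraries, share none of these motifs: *Col3a1* has a TATA match 117 bases before the start and no GC box, and *Col5a1* has 2 GC boxes, at 73 and 205 bases. *Col8a1* carries 4 GC boxes, the nearest 23 bases before the start. *Col11a2* has a TATA match at 143 bases and GC boxes at 38 and 133 bases. The same 250-base stretch was available for 34 of the 43 collagens (37 windows). A GC box was present in 22 (59.46%, against 32.74% of all 32851 windows). A TATA match was present in 4 (10.81% against 12.37%) and a CCAAT match in 13 (35.14% against 33.85%). A match is a match of letters and shows no binding.

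Several collagens are encoded next to each other. *Col4a1* and *Col4a2* lie head to head on chromosome 8, with starts 21 bases apart (11312826 on the − strand and 11312805 on the + strand, GRCm38.p6), and *Col4a5* and *Col4a6* lie head to head on chromosome X, with starts 1343 bases apart. *Col4a3* and *Col4a4* adjoin on chromosome 1, as do *Col3a1* and *Col5a2*, and *Col6a1* and *Col6a2* adjoin on chromosome 10. Whether the authors' counting used strand is not given in the sources used here, so reads where *Col4a1* meets *Col4a2* or *Col4a3* meets *Col4a4* are uncertain in their gene.

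Per gene length, type IV transcripts led the family. Mean FPKM (counts scaled for gene length and library total) over the 12 libraries was 41.0 for *Col4a1* and 32.4 for *Col4a2*, the pair of chains found in nearly every basement membrane, which ranked 774 and 956 among 22781 non-mitochondrial genes. The fibrillar chains *Col3a1* and *Col1a2* followed at 17.0 and 16.2, then *Col6a1* at 12.4, *Col15a1* at 8.44, *Col6a2* at 7.93 and *Col1a1* at 7.83. For scale, the cardiomyocyte myosin gene *Myh6* was at 2399 FPKM. *Col4a1* and *Col4a2* together made 37.7% to 56.2% of the summed collagen FPKM of a library, and with *Col1a1*, *Col1a2* and *Col3a1* 64.8% to 73.1%.

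By class, basement membrane collagens took 45.6% to 65.0% of the summed collagen FPKM of a library, fibrillar collagens 21.4% to 35.3% and beaded filament collagens 10.4% to 15.8%. The mean fibrillar share (± SD over the 3 libraries) was 28.2% ± 6.98 in sham saline, 29.4% ± 2.43 in NX saline, 27.3% ± 5.31 in sham JV101 and 30.4% ± 3.04 in NX JV101, and the ranges of the 4 groups overlapped. The basement membrane share was 55.4% ± 9.68, 53.4% ± 4.02, 55.8% ± 7.0 and 49.3% ± 2.72 in the same order. The short chain share, nearly all *Col8a1*, was 1.07% ± 0.339 in sham saline and 2.53% ± 0.530 in NX JV101, with 1.65% ± 0.495 and 1.70% ± 0.528 in sham JV101 and NX saline.

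**Figure D2:**
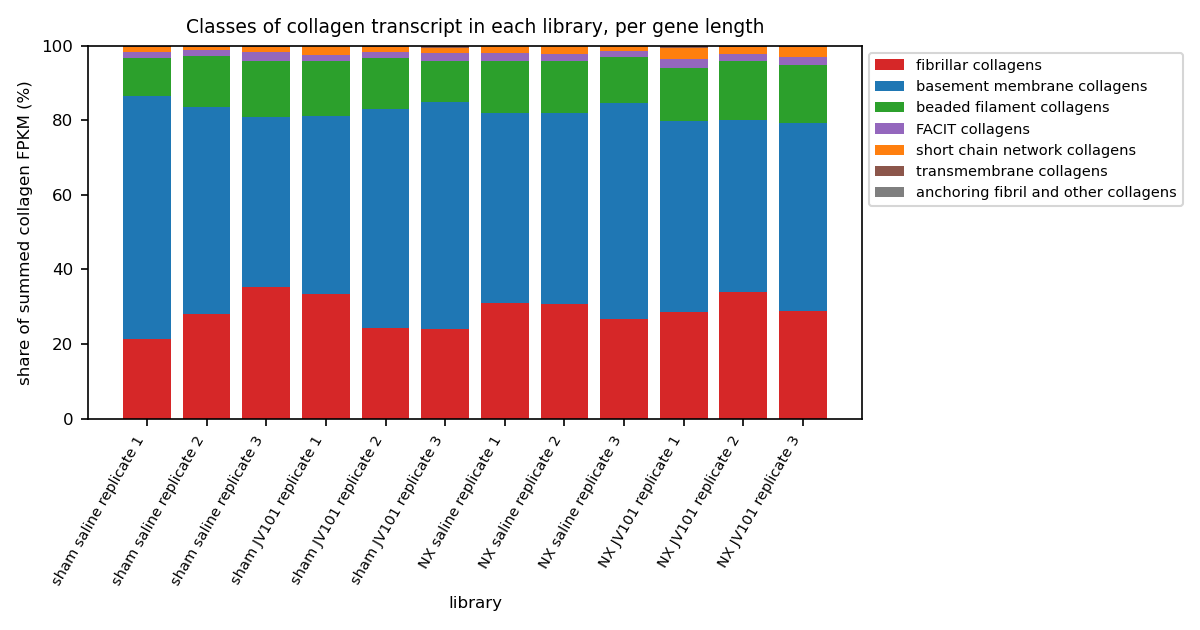
Stacked bars of each class's share (%) of the summed collagen FPKM in each of the 12 libraries. Basement membrane collagens (blue) are the largest class in every library, at 45.6% to 65.0%, and the fibrillar share (red) runs from 21.4% in sham saline replicate 1 to 35.3% in sham saline replicate 3.

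The question of the design was whether nephrectomy changes the cardiomyocyte transcriptome and whether JV101 alters that change. In each of 7 comparisons (4 of a pair of groups, the interaction, and the averages of nephrectomy and of JV101) edgeR's quasi-likelihood test with Benjamini-Hochberg adjustment over 14412 genes called 0 genes and 0 collagens. The percentage of genes called was therefore 0 in all of them. Differences below are descriptions of these libraries, and the pairs of comparisons that share a group (sham saline, NX saline, sham JV101 or NX JV101) are not independent of each other.

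After nephrectomy in saline mice, collagens were mostly higher, by amounts within the spread between libraries. The log2 fold change was above 0 in 27 of the 32 tested collagens (52.9% of all genes), with a median of 0.38 against 0.02 over all genes. At an unadjusted p under 0.05 by edgeR, 1 collagen was past it (3.64% of all genes), which was higher (1.64% of all genes higher, 2% lower), and the smallest adjusted p was 0.994. In 6 collagens (*Col1a1*, *Col5a1*, *Col6a1*, *Col6a2*, *Col8a1* and *Col27a1*) all 3 NX saline libraries were above all 3 sham saline libraries (4.9% of all genes), and in *Col28a1* all 3 were below (5.92%). The fibroblast markers were also mostly higher, with 13 of 14 above 0 and a median log2 fold change of 0.40, as were the endothelial markers with 9 of 11 and a median of 0.59. Their part in the collagen values was not tested. The mural markers were above 0 in 9 of 10 (median 0.33), the mesothelial markers in 10 of 10 (0.36) and the macrophage markers in 9 of 10 (0.24). None of the 3 libraries that stood apart belongs to these 2 groups. The collagen share of NX saline replicate 3 (0.306%) was still close to that of NX JV101 replicate 2 (0.314%).

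Single libraries of these groups moved the values of single collagens. Without sham saline replicate 1, the lowest of its group in type I collagen, the log2 fold change was 0.39 for *Col1a1*, 0.23 for *Col1a2*, 0.32 for *Col3a1*, 0.29 for *Col6a1*, 0.38 for *Col6a2* and 0.28 for *Col14a1*, against 0.72, 0.49, 0.55, 0.53, 0.58 and 0.55 with it. Without NX saline replicate 3 it was 0.24 for *Col4a1* and 0.22 for *Col15a1*, against 0.53 and 0.39 with it. *Col8a1* stayed between 0.95 and 1.42 when each of the 6 libraries was left out.

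With JV101 after nephrectomy the collagens lay on both sides of 0. Against NX saline, 15 of 32 were higher in NX JV101 (51.9% of all genes), with a median log2 fold change of −0.06 against 0.01 over all genes. At an unadjusted p under 0.05 by edgeR, 2 collagens were past it (2.39% of all genes), *Col11a2* and *Col7a1*, both lower (1.36% of all genes lower, 1.03% higher). All 3 NX JV101 libraries were above all 3 NX saline libraries in 4 collagens (*Col12a1*, *Col13a1*, *Col23a1* and *Col27a1*; 4.52% of all genes) and below them in 4 (*Col7a1*, *Col11a2*, *Col19a1* and *Col20a1*; 3.69%). Here fibroblast markers were above 0 in 13 of 14 (median 0.39), mural markers in 10 of 10 (0.41) and endothelial markers in 8 of 11 (0.09). Mesothelial markers, of the cells that cover the heart's surface, moved most: 0 of 10 were above 0, with a median of −1.20, and 9 of 10 were lower at an unadjusted p under 0.05. Their summed CPM was 93.6, 60.9 and 127 in NX saline and 39.7, 45.4 and 36.5 in NX JV101. The part of these cell types in the collagen values was not tested. The collagen median rested on NX JV101 replicate 2: it was −0.44 without that library and 0.17 without NX JV101 replicate 1. Leaving out all 3 libraries that stood apart gave −0.44, with 10 of 35 above 0 (47.6% of all genes in that fit). Those libraries were chosen for their collagen levels, so a lower NX JV101 mean follows from leaving out its highest library, and the fit is given as a description with no test. In that fit sham JV101 is left with 1 library, which is assumed to vary like the other groups.

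In sham mice the JV101 group held both the library with the highest collagen share of all 12 and the one with the lowest. Against sham saline, 23 of 32 collagens were higher (55.6% of all genes), with a median log2 fold change of 0.17 against 0.03 over all genes. The median was −0.33 without sham JV101 replicate 1 and 0.43 without replicate 3. It was −0.03 without sham saline replicate 1, so its direction depended on single libraries of either group. Among the 32, 0 reached an unadjusted p under 0.05 by edgeR (1.7% of all genes, 0.729% higher and 0.971% lower), and in 0 did the libraries of the groups not overlap (1.76% of all genes higher, 2.07% lower). With the 3 libraries left out the median was 0.06, with 20 of 35 above 0 (47.6% of all genes in that fit). DESeq2 gave 1 collagen of 43 at that unadjusted level (1.64% of all genes by DESeq2) and called 0 after adjustment. The fibroblast markers were above 0 in 14 of 14 (median 0.39), the mural markers in 10 of 10 (0.38) and the endothelial markers in 9 of 11 (0.33), while the mesothelial markers were above 0 in 1 of 10 (−0.62). Their part in the collagen values was not tested.

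Between the nephrectomy and sham groups given JV101, 23 of 32 collagens were higher after nephrectomy (50.6% of all genes), with a median log2 fold change of 0.18 against 0.003 over all genes. Single libraries moved this median to 0.69 (sham JV101 replicate 1 left out) and to −0.18 (sham JV101 replicate 3 left out), and with the 3 libraries left out it was −0.01, with 17 of 35 above 0 (52.4% of all genes in that fit). By edgeR *Col13a1* was higher and *Col11a2* lower at an unadjusted p under 0.05 (2.07% of all genes, 0.77% higher and 1.3% lower). Without sham JV101 replicate 1 that count was 7 of 35, beside 13.3% of all genes. The NX JV101 libraries lay above all of sham JV101 in *Col8a2* and *Col13a1* (2.69% of all genes) and below all of them in *Col7a1*, *Col11a2*, *Col19a1* and *Col20a1* (2.42%). Fibroblast markers were above 0 in 14 of 14 (median 0.36) and endothelial markers in 10 of 11 (0.36), with mesothelial markers in 0 of 10 (−0.34).

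The interaction, the change with JV101 after nephrectomy minus that after sham surgery, was above 0 in 11 of 32 (46% of all genes) with a median of −0.28, which was 0.28 without sham JV101 replicate 1, −0.61 without replicate 3 and −0.34 with the 3 libraries left out. Averaged over both injections, nephrectomy gave 26 of 32 above 0 (51.6% of all genes) and a median of 0.27, between 0.10 and 0.49 when single libraries were left out and 0.18 with the 3 left out. Here edgeR put *Col8a1* (higher) and *Col11a2* (lower) under an unadjusted p of 0.05 (4.36% of all genes, 1.72% higher and 2.64% lower). Without sham JV101 replicate 1 the count was 14 of 35, beside 17.9% of all genes, with a smallest adjusted p of 0.152 by edgeR. JV101 averaged over both surgeries gave 19 of 32 above 0 (55% of all genes) and a median of 0.06. That median was −0.25 without sham JV101 replicate 1 and −0.21, with 8 of 35 above 0 (46.1% of all genes in that fit), with the 3 libraries left out. It was also below 0 without NX JV101 replicate 2 (−0.15), sham saline replicate 1 (−0.07) or NX saline replicate 1 (−0.04). Its direction was thus not stable to leaving out single libraries, among them libraries that did not stand apart.

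**Figure D3:**
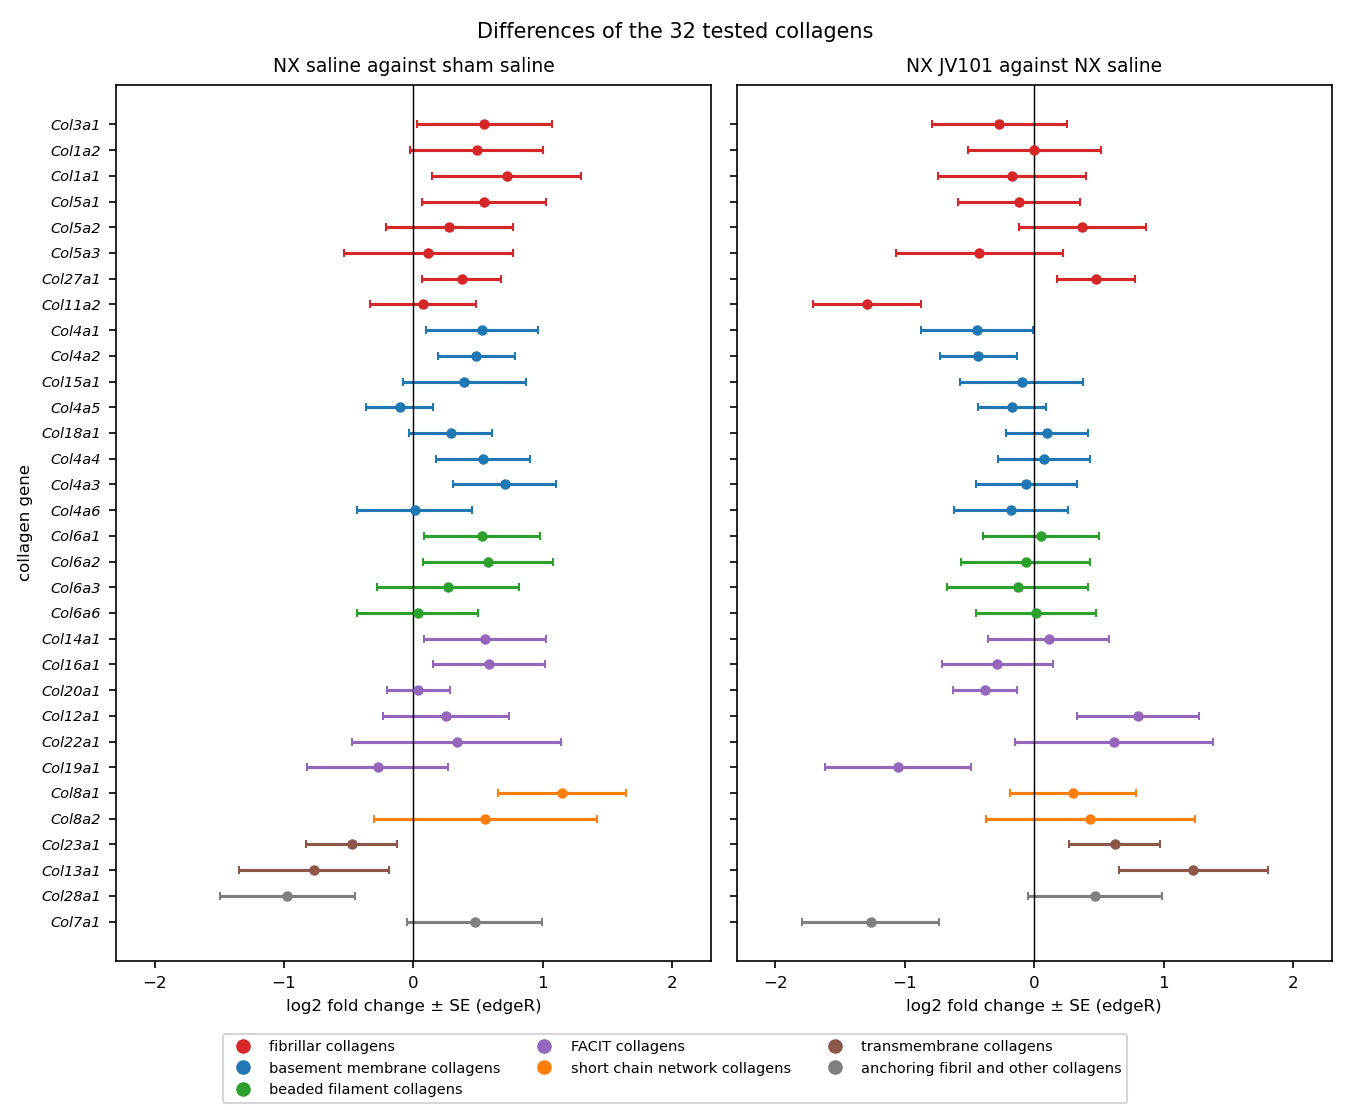
Log2 fold change ± SE (edgeR, x axis) of each of the 32 tested collagens (y axis, coloured by class) for NX saline against sham saline (left) and NX JV101 against NX saline (right). On the left 27 of 32 points lie above 0 with no adjusted p under 0.05; on the right 15 do, and *Col11a2*, *Col7a1* and *Col19a1* lie farthest below 0.

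Fibrillar collagens came to 8 tested genes. All 8 had a positive log2 fold change in NX saline against sham saline (median 0.43), and 3 of 8 did in NX JV101 against NX saline (median −0.14). *Col1a1*, the major chain of type I collagen, was at 16.1, 41.0 and 41.4 CPM in sham saline replicates 1 to 3 and at 46.0, 59.2 and 56.7 CPM in NX saline. It was at 83.5, 30.2 and 15 CPM in sham JV101 and at 25.4, 77.2 and 41.3 CPM in NX JV101. The NX saline libraries did not overlap the sham saline ones, while the JV101 libraries spanned both. *Col1a1* had a log2 fold change of 0.72 in NX saline against sham saline (SE 0.58, adjusted p = 0.994 by edgeR).

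*Col3a1*, the chain of type III collagen, was at 51.0, 72.3 and 107 CPM in sham saline and at 113, 94.7 and 129 CPM in NX saline. The sham JV101 libraries were at 152, 60.6 and 33.8 CPM and the NX JV101 libraries at 49.8, 156 and 73.2 CPM. All 4 groups overlapped, and the log2 fold change after nephrectomy with saline was 0.55 (SE 0.52). *Col1a2*, the partner chain of *Col1a1*, was at 39.7, 67.9 and 85.2 CPM in sham saline, 65.2, 104 and 101 CPM in NX saline, 144, 64.7 and 28.6 CPM in sham JV101 and 59.5, 141 and 69.3 CPM in NX JV101. Its groups overlapped too, with a log2 fold change of 0.49 (SE 0.51) after nephrectomy with saline.

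The type V chains, which set the width of type I fibrils, ranged over the libraries from 10.4 to 48.1 CPM (*Col5a1*), 6.83 to 34.8 CPM (*Col5a2*) and 3.05 to 23.3 CPM (*Col5a3*). *Col27a1* was at 1.74, 2.02 and 1.86 CPM in sham saline, 2.44, 2.18 and 2.65 CPM in NX saline, 3.86, 2.89 and 1.62 CPM in sham JV101 and 3.81, 3.51 and 2.79 CPM in NX JV101. Its NX JV101 libraries lay above those of both saline groups. Averaged over surgeries, the log2 difference of *Col27a1* with JV101 was 0.53 (SE 0.21, unadjusted p = 0.030 and adjusted p = 1.00 by edgeR), the only collagen at that level in this comparison (2.28% of all genes, 1.01% higher and 1.27% lower).

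*Col11a2*, a chain of the type XI collagen best known from cartilage, went apart from the other fibrillar genes. It was at 2.00, 2.14 and 1.21 CPM in sham saline, 1.55, 2.3 and 1.73 CPM in NX saline, 1.72, 2.76 and 2.16 CPM in sham JV101 and 1.29, 0.542 and 0.474 CPM in NX JV101, from 19 to 80 counts per library. The 3 NX JV101 libraries were below all 3 NX saline and all 3 sham JV101 libraries, and 2 of them were below all 9 of the other groups. The log2 fold change in NX JV101 was −1.29 (SE 0.42) against NX saline and −1.53 (SE 0.42) against sham JV101, with unadjusted p of 0.0099 and 0.0035 and adjusted p of 1.00 and 0.999 by edgeR. The interaction of *Col11a2* was −1.61 (SE 0.58). With the 3 libraries that stood apart left out, the difference from NX saline was −1.09 (SE 0.48). The fibrillar genes without a test were nearly absent: *Col2a1* had 3 counts in all 12 libraries together, *Col11a1* 5 and *Col24a1* 14.

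**Figure D4:**
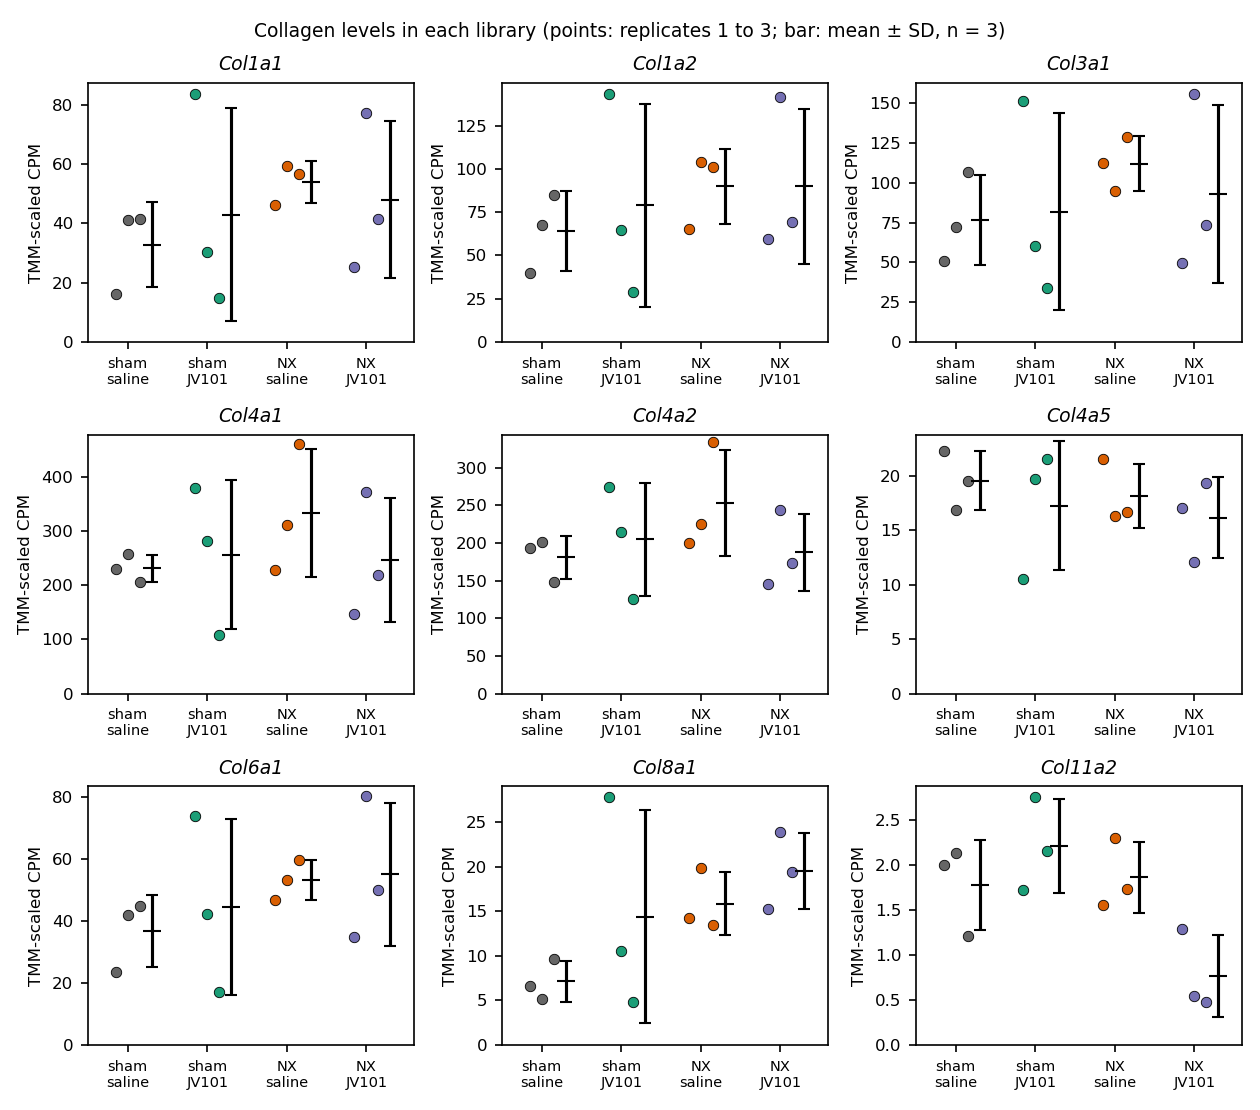
TMM-scaled CPM of 9 collagens in each library (points, replicates 1 to 3 from left to right) with the mean ± SD of each group of 3 (bars). NX saline lies above sham saline without overlap in *Col1a1*, *Col6a1* and *Col8a1*, the JV101 groups are widely spread in most panels, and *Col11a2* is lowest in NX JV101.

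All 8 basement membrane collagens were tested, and 7 of 8 had a positive log2 fold change in NX saline against sham saline (median 0.44). *Col4a1* was at 231, 257 and 207 CPM in sham saline, 229, 313 and 462 CPM in NX saline, 381, 283 and 108 CPM in sham JV101 and 148, 372 and 219 CPM in NX JV101. *Col4a2* was at 193, 202 and 148 CPM in sham saline, 200, 225 and 333 CPM in NX saline, 275, 215 and 125 CPM in sham JV101 and 145, 244 and 173 CPM in NX JV101. Both chains had their highest value in NX saline replicate 3 and their lowest in sham JV101 replicate 3, and their groups overlapped. NX saline replicate 3 also had the highest endothelial marker sum, 1954 CPM. The log2 fold change in NX saline against sham saline was 0.53 (SE 0.43) for *Col4a1* and 0.49 (SE 0.30) for *Col4a2*, which was not past the threshold for either.

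*Col15a1*, a basement membrane proteoglycan core found around capillaries and muscle cells, ranged from 17.2 CPM in sham JV101 replicate 3 to 73.6 CPM in NX JV101 replicate 2. In sham saline it was at 28.2, 48.0 and 35.8 CPM, in NX saline at 47.5, 38.2 and 61.3 CPM, in sham JV101 at 69.9, 42.3 and 17.2 CPM and in NX JV101 at 23.7, 73.6 and 40.0 CPM. The groups overlapped, with a log2 fold change of 0.39 (SE 0.48). *Col18a1*, the source of the fragment endostatin, ranged from 3.95 to 11.1 CPM.

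*Col4a5*, a type IV chain mutated in the kidney disease Alport syndrome, was low in libraries where many collagens were high. It was at 22.3, 16.9 and 19.5 CPM in sham saline, 21.6, 16.3 and 16.7 CPM in NX saline, 10.5, 19.7 and 21.6 CPM in sham JV101 and 17.1, 12.1 and 19.3 CPM in NX JV101. Its 2 lowest libraries were sham JV101 replicate 1 and NX JV101 replicate 2, the pair that was highest in 11 other collagens; 1 of the 32 tested collagens had that order, against 8.42% of all tested genes. Those are also the libraries with the lowest cardiomyocyte marker sums. Its log2 difference between NX saline and sham saline was −0.11 (SE 0.26).

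*Col4a3* and *Col4a4*, the other chains of the kidney's filtration membrane, were measured at low levels. *Col4a3* was at 1.38, 1.5 and 1.64 CPM in sham saline, 1.46, 2.96 and 2.98 CPM in NX saline, 3.12, 1.45 and 1.11 CPM in sham JV101 and 2.35, 2.55 and 2.17 CPM in NX JV101, with 2 of 3 NX saline libraries above all of sham saline and a log2 fold change of 0.70 (SE 0.40). *Col4a4* ranged from 3.48 to 8.81 CPM over the 12 libraries and *Col4a6* from 0.633 to 2.02 CPM.

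Of the 6 type VI genes, whose chains form beaded filaments that tie cells to the matrix, 4 were tested, and all 4 were higher in NX saline (median log2 fold change 0.40). *Col6a1* was at 23.7, 42.0 and 45.0 CPM in sham saline, 47.0, 53.2 and 59.7 CPM in NX saline, 73.9, 42.3 and 17.3 CPM in sham JV101 and 34.9, 80.5 and 50.1 CPM in NX JV101. *Col6a2* was at 25.1, 38.4 and 42.6 CPM in sham saline, 45.1, 53.9 and 59.1 CPM in NX saline, 77.3, 41.5 and 14.9 CPM in sham JV101 and 27.2, 79.7 and 44.1 CPM in NX JV101. In both genes the lowest NX saline library lay just above the highest sham saline library, and the JV101 libraries spanned the whole range. *Col6a1* had a log2 fold change of 0.53 (SE 0.45) and *Col6a2* one of 0.58 (SE 0.50). *Col6a3* was at 13.6, 32.5 and 24.4 CPM in sham saline, 24.6, 24.3 and 35.9 CPM in NX saline, 42.6, 25.5 and 8.84 CPM in sham JV101 and 13.2, 44.8 and 19.4 CPM in NX JV101, with a log2 fold change of 0.27 (SE 0.55) that was −0.011 without sham saline replicate 1.

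Of the 9 FACIT collagens 6 were tested. *Col14a1*, found on type I fibrils, was at 5.83, 9.06 and 14.2 CPM in sham saline, 11.3, 12.6 and 18.9 CPM in NX saline, 16.6, 8.90 and 3.86 CPM in sham JV101 and 11.9, 21.4 and 12.8 CPM in NX JV101. Its groups overlapped, with a log2 fold change of 0.55 (SE 0.47) after nephrectomy with saline. *Col16a1* was at 2.74, 3.69 and 6.44 CPM in sham saline, 6.91, 6.30 and 6.12 CPM in NX saline, 6.92, 4.70 and 1.83 CPM in sham JV101 and 3.78, 6.86 and 5.19 CPM in NX JV101, with 0.58 (SE 0.43) in the same comparison. *Col20a1* was at 2.92, 2.71 and 1.95 CPM in sham saline, 2.44, 2.79 and 2.55 CPM in NX saline, 2.93, 2.21 and 3.05 CPM in sham JV101 and 1.70, 2.17 and 2.09 CPM in NX JV101 and, unlike the others of its class, was highest in sham JV101 replicate 3. Its log2 fold change in NX saline against sham saline was 0.04 (SE 0.25). *Col12a1*, *Col19a1* and *Col22a1* stayed at or under 1.70 CPM in every library. *Col19a1* was lower in all 3 NX JV101 libraries (0.125 to 0.212 CPM) than in all 3 of NX saline (0.285 to 0.487 CPM), and its log2 fold change of −1.05 (SE 0.56) did not pass. It had 5 to 14 counts per library over the 12.

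The short chain gene *Col8a1*, whose product forms hexagonal networks in vessel walls and beneath endothelia, had the smallest p of the family in NX saline against sham saline. It was at 6.63, 5.14 and 9.69 CPM in sham saline, 14.3, 19.9 and 13.4 CPM in NX saline, 27.8, 10.6 and 4.82 CPM in sham JV101 and 15.3, 23.9 and 19.4 CPM in NX JV101. All 6 nephrectomy libraries were above all 3 sham saline libraries, and sham JV101 covered the whole range. The log2 fold change was 1.14 (SE 0.50), or 2.21-fold, with an unadjusted p of 0.0403 and an adjusted p of 0.994 by edgeR. Averaged over injections, nephrectomy gave 0.79 (SE 0.35, adjusted p = 0.860 by edgeR). With single libraries left out this ran from 0.59 (without sham JV101 replicate 3) to 1.25 (without sham JV101 replicate 1). *Col8a2* was at or under 0.449 CPM, 18 counts, in every library. It had 4, 3 and 8 counts in sham saline, 2, 15 and 5 in NX saline, 6, 0 and 5 in sham JV101 and 12, 8 and 18 in NX JV101.

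Transmembrane collagens were scarce. *Col13a1*, known from the nerve-muscle junction, was at 0.563, 0.404 and 0.960 CPM in sham saline, 0.190, 0.431 and 0.542 CPM in NX saline, 0.629, 0.226 and 0.210 CPM in sham JV101 and 0.681, 1.18 and 0.823 CPM in NX JV101, from 5 to 50 counts per library. Every sham JV101 library was below the sham saline mean of 0.642 CPM, but the 2 groups overlapped. Sham JV101 replicate 1, at 0.629 CPM, lay above the sham saline libraries at 0.563 and 0.404 CPM. Every NX JV101 library was above all of NX saline. The interaction of *Col13a1* was 2.07 (SE 0.81, unadjusted p = 0.026, adjusted p = 1.00 by edgeR) and did not pass. Only *Col11a2* and *Col13a1* of the 32 were under an unadjusted 0.05 in the interaction (1.78% of all genes, 1.05% higher and 0.722% lower). *Col23a1*, the other tested transmembrane gene, was at 1.64, 1.96 and 1.55 CPM in sham saline, 1.08, 0.862 and 1.79 CPM in NX saline, 1.01, 1.04 and 1.92 CPM in sham JV101 and 1.81, 1.96 and 1.89 CPM in NX JV101. It was higher in all 3 NX JV101 than in all 3 NX saline libraries, by a log2 fold change of 0.62 (SE 0.35).

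Of the remaining types, *Col28a1*, a collagen of peripheral nerve, was at 0.588, 0.924 and 0.464 CPM in sham saline, 0.222, 0.345 and 0.433 CPM in NX saline, 0.684, 0.678 and 0.270 CPM in sham JV101 and 0.477, 0.566 and 0.324 CPM in NX JV101. All 3 NX saline libraries were below all of sham saline, with a log2 fold change of −0.97 (SE 0.52), on 7 to 25 counts per library over the 12. *Col7a1*, the anchoring fibril collagen of skin, was at 0.435, 0.981 and 0.402 CPM in sham saline, 0.475, 1.06 and 0.921 CPM in NX saline, 0.492, 0.542 and 1.14 CPM in sham JV101 and 0.341, 0.401 and 0.274 CPM in NX JV101. In NX JV101 it lay below all of NX saline, with a log2 fold change of −1.26 (SE 0.53, unadjusted p = 0.0351, adjusted p = 1.00 by edgeR), on 10 to 37 counts per library in these groups.

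The 11 collagens without a test were at or under 13 counts in every library. *Col9a1*, a cartilage gene, had 1 count in 1 library, *Col6a4* 7 counts over 4 libraries, *Col9a2* 17, *Col17a1* and *Col26a1* 18 each, *Col6a5* 62, *Col25a1* 63 and *Col9a3* 69 counts over all 12. *Col10a1*, the remaining short chain gene, was not analysed here.

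Some pairs of chains kept their ratio more closely than their level. The FPKM of *Col1a1* divided by that of *Col1a2* was 0.358 to 0.622 over the 12 libraries, a 1.74-fold span, while *Col1a1* itself spanned 5.57-fold in CPM. *Col4a1* to *Col4a2* was 0.840 to 1.49, and *Col6a1* to *Col6a2* 1.43 to 1.94. *Col3a1* to *Col1a1*, chains of different proteins in the same fibrils, was 1.70 to 3.36. Other pairs did not. *Col4a5* to *Col4a6*, neighbouring genes whose chains share a helix, ran from 7.80 to 32.2, a 4.12-fold span, while *Col4a5* spanned 2.12-fold and *Col4a6* 3.19-fold in CPM. *Col4a6* had 14 to 68 counts per library, fewer than any chain of the pairs above, and the part of counting noise in this ratio was not tested. *Col4a5* to *Col4a1*, chains of 1 type, ran from 0.0278 in sham JV101 replicate 1 to 0.201 in sham JV101 replicate 3, a 7.24-fold span.

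Of the 10 ratios computed, 2 separated NX saline from NX JV101 without overlap, and both include *Col5a2*. *Col5a1* to *Col5a2* was 1.57, 1.39 and 1.79 in NX saline and 1.19, 1.07 and 1.16 in NX JV101, while sham saline (1.18, 1.41 and 1.28) and sham JV101 (1.14, 1.33 and 1.18) overlapped. *Col5a2* to *Col3a1* was 0.110, 0.182 and 0.107 in NX saline and 0.204, 0.188 and 0.228 in NX JV101. Sham saline (0.162, 0.175 and 0.140) and sham JV101 (0.177, 0.211 and 0.170) overlapped. The 2 ratios share a gene and are not independent. They were picked out after the values were seen, and no test was made of them. The share of other gene pairs that separate in this way was not computed.

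**Figure D5:**
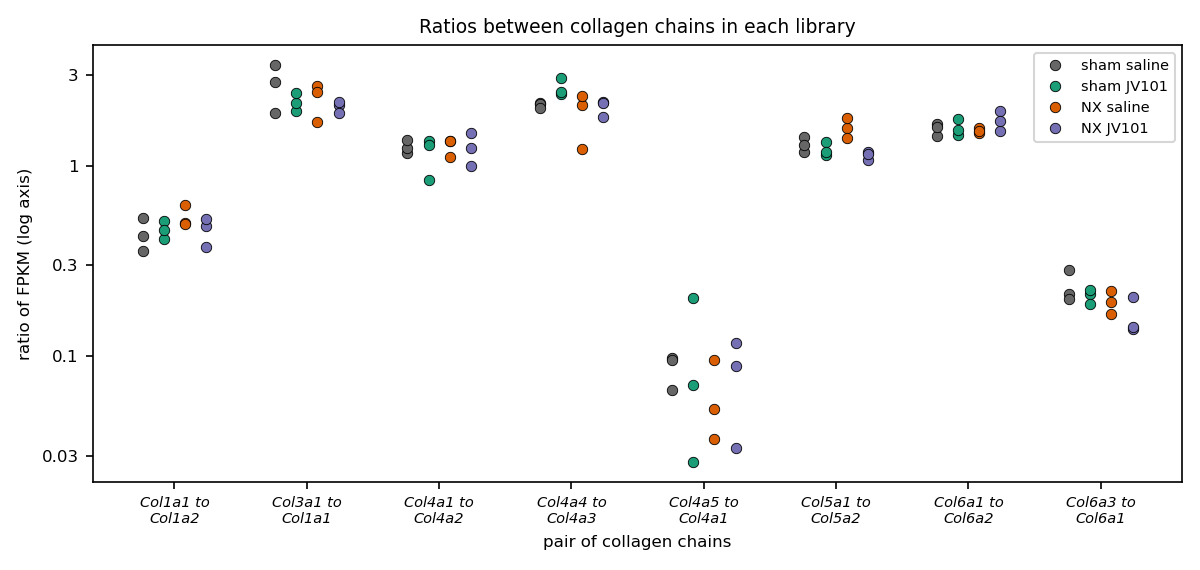
Ratio of deposited FPKM between pairs of collagen chains (log axis), with a point for each of the 12 libraries coloured by group. The ratio of *Col4a5* to *Col4a1* spans 0.0278 to 0.201, more than the ratios of partner chains such as *Col1a1* to *Col1a2* (0.358 to 0.622).

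Genes that make, trim, link, break down and sense collagen were described from 5 lists of 21, 8, 13, 12 and 9 members, none of which passed the adjusted threshold in any comparison. In NX saline against sham saline, chain modification and folding genes had 11 of 20 tested above 0 (median log2 fold change 0.05). The smallest p values there were those of *Mia3*, which packages collagen for export (−0.31, SE 0.14), and *P4ha1*, a prolyl hydroxylase subunit (−0.87, SE 0.40). *P4ha1* was at 45.1, 131 and 88.9 CPM in sham saline and at 44.2, 43.6 and 56.9 CPM in NX saline, so the higher sham mean came from 2 libraries. Its relative *P4ha2* was at 34.6, 47.0 and 42.1 CPM in sham saline, 31.4, 26.2 and 30.5 CPM in NX saline, 24.8, 40.0 and 37.7 CPM in sham JV101 and 21.8, 34.5 and 21.3 CPM in NX JV101. Averaged over injections, nephrectomy gave *P4ha2* −0.44 (SE 0.16) and *P4ha1* −0.61 (SE 0.28), against the mostly positive values of the collagens.

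Crosslinking and fibril assembly genes were above 0 in 12 of 13 in NX saline against sham saline (median 0.48), a median close to that of the collagens. *Tnxb*, tenascin X, was at 50.6, 83.9 and 93.0 CPM in sham saline and 98.9, 164 and 122 CPM in NX saline without overlap (0.76, SE 0.41). *Loxl4*, a lysyl oxidase, had 0.85 (SE 0.50) on low mean levels of 0.630 CPM in sham saline and 1.09 CPM in NX saline. *Fmod*, fibromodulin, was at 8.72, 7.97 and 8.26 CPM in sham saline and 11.5, 4.86 and 14.0 CPM in NX saline, against 4.60, 5.20 and 5.66 CPM in sham JV101 and 6.06, 5.18 and 7.83 CPM in NX JV101. All 3 sham JV101 libraries were below all of sham saline, and JV101 averaged over surgeries gave *Fmod* −0.68 (SE 0.22, did not pass). Propeptide cleavage genes were above 0 in 7 of 8 in NX saline (median 0.27), led by *Bmp1*, the C-proteinase (0.33, SE 0.19), and *Adamts2*, the N-proteinase (0.80, SE 0.48).

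Breakdown genes were above 0 in 10 of 12 in NX saline against sham saline (median 0.55). *Mmp8*, a neutrophil collagenase, had 1, 2 and 1 counts in sham saline and 22, 18 and 0 in NX saline, with 35, 8 and 0 in sham JV101 and 3, 2 and 1 in NX JV101. At such counts its values rest on 1 or 2 libraries in a group. *Timp3*, an inhibitor of matrix proteases, had 0.72 (SE 0.54). Collagen receptors were above 0 in 6 of 8 tested (median 0.10), with *Lair1*, an inhibitory receptor of immune cells, at 1.07 (SE 0.61) and *Itga2*, the integrin alpha 2 chain, at 1.01 (SE 0.80). Mean levels in sham saline and NX saline were low, at 0.848 and 1.83 CPM for *Lair1* and 0.218 and 0.438 CPM for *Itga2*. In NX JV101 against NX saline the medians of the 5 lists lay between −0.02 and 0.12.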

How the data were processed

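Per the labels' protocols, RNA of isolated cardiomyocytes was purified with an RNeasy kit and turned into polyA libraries (VAHTS Universal V6). The authors deposited raw counts per gene and FPKM, made with fastp, HISAT2 and HTSeq on GRCm39 per the submitters' processing notes; tool versions and the strand setting are not stated in these sources. The deposited FPKM count mitochondrial genes in their total, so FPKM was used to compare genes and CPM to compare libraries.

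Counts were filtered (edgeR filterByExpr, minimum count 10, minimum total 15), scaled with TMM and fitted with 1 coefficient per group on the 12 libraries together. Tests were 2-sided, with a threshold of 0.05 on p-values adjusted by the Benjamini-Hochberg method; standard errors were the size of the log2 difference over the root of its F statistic. Software was DESeq2 1.42.0, limma 3.58.1 and edgeR 4.0.16 under R 4.3.3, and the scripts were tested on simulated data. Named genes were the 3 with the highest FPKM in each class, the 2 collagens with the smallest p in each direction and up to 2 members of each other list; others were named after their values were seen. The family, the lists and the tests were chosen with earlier results of these data known. Alternatives were upper-quartile or RLE factors, DESeq2, no filter, 5 CPM in 3 libraries, a fit of the compared groups alone, a replicate block, no mitochondrial genes, limma on log2 FPKM (pseudocounts 1 and 0.1) and leaving out each library. A fit without the 3 libraries that stood apart was added after seeing the data.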

Additional observations from a re-analysis of the deposited data

How the results depend on the processing

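No alternative called a collagen, where the smallest adjusted p of a collagen was 0.152 (nephrectomy averaged over injections, edgeR without sham JV101 replicate 1). Over all genes edgeR and limma called 0 in the 7 comparisons under each alternative run, and edgeR as reported had 245 to 629 genes at an unadjusted p under 0.05. DESeq2 called 1 gene in NX saline against sham saline (*Niban3*), 4 in NX JV101 against NX saline (*Krt19*, *Lrrn4*, *Muc16* and *Spib*), 1 for nephrectomy averaged over injections (*Niban3*) and 5 for JV101 averaged over surgeries (*Lrrn4*, *Msln*, *Muc16*, *Lrp2* and *Upk3b*), none of them a collagen. *Krt19*, *Lrrn4*, *Msln*, *Muc16* and *Upk3b* are on the mesothelial marker list, of which 0 of 10 were above 0 for JV101 averaged over surgeries (median −0.94). The cause was not tested.

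Leaving out single libraries moved the median log2 fold change of the collagens from −0.33 to 0.43 in sham JV101 against sham saline, from −0.18 to 0.69 in NX JV101 against sham JV101 and from −0.61 to 0.28 in the interaction, with sham JV101 replicate 1 or 3 left out at each end. It stayed between 0.23 and 0.51 in NX saline against sham saline, where it was 0.11 by limma on log2(FPKM + 1). With 5 CPM in 3 libraries it was 0.55, but over the 19 collagens that passed that filter. In NX JV101 against NX saline limma on log2(FPKM + 0.1) gave 0.18 and in the interaction 0.01, the other side of 0. All genes shifted in these limma fits. Of all genes 88.8% and 78.7% were above 0, against 51.9% and 46% by edgeR as reported. Of the 32 collagens 24 and 17 were above 0 by limma. Single genes close to 0 changed sign in NX saline against sham saline: *Col6a3* ranged from −0.011 (without sham saline replicate 1) to 0.58, *Col20a1* from −0.12 (without sham saline replicate 3; −0.02 without NX saline replicate 2) to 0.16, and *Col8a2* from −0.15 (without NX saline replicate 2) to 1.02. Fewer samples entered these fits. Deviations of same-numbered libraries of different groups correlated at −0.50 to 0.25 (median −0.03, 6 of 18 over 0.1). Those of differently numbered libraries correlated at −0.54 to 0.55 (median 0.02, 10 of 36 over 0.1). With 3 libraries a group these values cannot exclude that the numbers mark a shared batch. With the replicate block the collagen median of NX saline against sham saline was 0.43, with 0 genes called. Depth limited the scarce members, with a median of 77 to 380 counts per tested collagen in a library.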
